A study of Mus musculus with 2 samples.

Results

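Interferon-induced genes were described in single cells of healthy mouse glomeruli, the filtration units of the kidney. Their 9 members are Ifit1, Ifit3, Isg15, Ifitm3, Gbp2, Irf7, Irf1, Cxcl9 and Cxcl10, which were found by symbol among the 31058 entries of the feature list that both libraries share. They were chosen as known interferon targets and not by a measured value, but with earlier results of these data known. The data are 10x Genomics 3' single-cell RNA libraries from cells of the glomerulus, sequenced on a NextSeq500, with 1 library titled female and 1 titled male. Both carried the Pax2.rtTA;TetO.Cre;R26.Confetti genotype on C57Bl/6, in which the Pax2 promoter drives a doxycycline-dependent activator and Cre then switches on Confetti colours in cells with Pax2 activity and their progeny. Both were given doxycycline at 19 days of age and killed at 30 days of age, both were labelled healthy, and the suspensions had 95% viability. The series text also calls the animals wild type, and no interferon or infection was applied according to the labels. How many animals stand behind each library was not given in the sources used here. With 1 library per group there was no test between libraries, and every interval below is a 95% interval that covers counting error only.

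The titles and the sex-linked transcripts of the libraries went in opposite directions. The library titled female held 4 Y-linked genes at a summed 214 CPM, the UMI counts scaled to a common total, and Xist at 0.682 CPM. The library titled male held Xist at 1590 CPM and the same Y-linked genes at 0.0206 CPM. They are therefore called the library labelled female and the library labelled male throughout, in that order wherever 2 values stand side by side, and no difference between them is read as one of sex. Sex, animal and preparation cannot be told apart here.

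Interferons are secreted signals that cells release on sensing viral or misplaced nucleic acid. Type I interferons bind the receptor pair Ifnar1 and Ifnar2, and interferon gamma binds Ifngr1 and Ifngr2. Janus kinases attached to the receptors then activate transcription factors, which move to the nucleus and switch on genes that carry an interferon-stimulated response element (ISRE) or a gamma-activated site (GAS). In the glomerulus, mesangial cells form the stroma between capillary loops, endothelial cells line the capillaries, podocytes wrap them, and parietal cells line the surrounding capsule. Some healthy tissues keep a low, patchy level of interferon-induced transcripts without an infection.

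The start sites of 5 members are shown to give the regulatory letters that interferon-activated factors read. Each is the RefSeq promoter window of GRCm38.p6, from 250 bases before to 50 bases after the annotated start, written 5' to 3' on the gene's strand. Capitals mark the ISRE core GAAANNGAAA on either strand, overlaps included, and in Irf1, which lacks that core here, the GAS letters TTCNNNGAA.
Ifit1 (chr19:34640639-34640938, plus strand): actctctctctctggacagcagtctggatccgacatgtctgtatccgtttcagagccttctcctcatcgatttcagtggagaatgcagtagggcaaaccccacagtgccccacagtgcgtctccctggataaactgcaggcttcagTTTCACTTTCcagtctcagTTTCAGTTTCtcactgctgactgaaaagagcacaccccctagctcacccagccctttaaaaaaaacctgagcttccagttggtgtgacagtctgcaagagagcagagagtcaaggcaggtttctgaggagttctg
Ifit3 (chr19:34583279-34583578, plus strand): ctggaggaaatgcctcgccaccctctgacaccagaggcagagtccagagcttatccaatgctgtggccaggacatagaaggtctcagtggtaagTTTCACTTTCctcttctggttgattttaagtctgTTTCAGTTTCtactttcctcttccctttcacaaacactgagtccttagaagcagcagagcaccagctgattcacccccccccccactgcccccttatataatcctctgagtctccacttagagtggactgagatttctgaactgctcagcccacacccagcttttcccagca
Isg15 (chr4:156200769-156201068, minus strand): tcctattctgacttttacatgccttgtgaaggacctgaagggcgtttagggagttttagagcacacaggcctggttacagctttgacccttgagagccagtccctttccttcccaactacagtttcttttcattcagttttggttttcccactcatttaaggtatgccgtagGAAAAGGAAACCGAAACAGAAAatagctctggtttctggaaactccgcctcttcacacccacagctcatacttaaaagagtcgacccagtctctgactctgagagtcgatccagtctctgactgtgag
Cxcl10 (chr5:92348840-92349139, minus strand): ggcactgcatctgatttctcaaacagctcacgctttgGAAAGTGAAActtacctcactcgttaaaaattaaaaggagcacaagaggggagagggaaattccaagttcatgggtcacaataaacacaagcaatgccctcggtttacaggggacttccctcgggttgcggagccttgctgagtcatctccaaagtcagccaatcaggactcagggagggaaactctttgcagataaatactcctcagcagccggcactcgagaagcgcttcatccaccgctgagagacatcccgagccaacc
Irf1 (chr11:53769764-53770063, plus strand): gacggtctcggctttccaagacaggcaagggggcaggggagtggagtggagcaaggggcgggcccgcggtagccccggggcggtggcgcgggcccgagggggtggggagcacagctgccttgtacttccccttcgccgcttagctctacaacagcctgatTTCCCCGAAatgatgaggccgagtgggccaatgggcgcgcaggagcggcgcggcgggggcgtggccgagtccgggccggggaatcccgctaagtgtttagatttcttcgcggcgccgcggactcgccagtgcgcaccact
The ISRE core occurred in 1131 of 32851 promoter windows of this length (3.44%) and the GAS letters in 2726 (8.30%). Positions are those of the first base of a match as written. The Ifit1 and Ifit3 windows each held 2 cores, the nearer ones beginning 85 and 122 bases before the start. The Isg15 window held 3 overlapping cores, the nearest 66 bases before the start, and the Cxcl10 window held 1, at 213 bases before it. Among the windows not printed, Gbp2 held 1 core 59 bases before the start, and Ifitm3 held 2 cores and 1 GAS match just after it. No ISRE core was found in the windows of Irf7 and Cxcl9 or in either Irf1 window, and 1 GAS match lay 90 bases before the first Irf1 start. A match is a description of letters in these windows.

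All 9 members are protein-coding genes, placed here on GRCm38 by the GENCODE vM21 annotation. Ifit1 (ENSMUSG00000034459, chr19:34640871-34650009) and Ifit3 (ENSMUSG00000074896, chr19:34583531-34588731) are neighbours on the plus strand and encode proteins that bind foreign RNA. Isg15 (ENSMUSG00000035692, chr4:156199424-156200818, minus strand) encodes a ubiquitin-like modifier, and Ifitm3 (ENSMUSG00000025492, chr7:141009586-141010770, minus strand) a membrane protein that hinders virus entry. Gbp2 (ENSMUSG00000028270, chr3:142620602-142638008, plus strand) encodes a guanylate-binding protein that attacks pathogen compartments. Irf7 (ENSMUSG00000025498, chr7:141262706-141266481, minus strand) and Irf1 (ENSMUSG00000018899, chr11:53770014-53778374, plus strand) encode transcription factors of the response. Cxcl9 (ENSMUSG00000029417, chr5:92321347-92328079) and Cxcl10 (ENSMUSG00000034855, chr5:92346638-92348889), neighbours on the minus strand, encode chemokines that draw T cells through Cxcr3. Ifit1, Ifit3 and Gbp2 have relatives of similar name (Ifit1bl1, Ifit3b and Gbp2b), whose sequences were not compared here. The counts of Ifit1, Ifit3 and Gbp2 are uncertain to the extent that reads are shared and the authors' counting divided them.

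The libraries held 5233 and 4974 barcodes with 67648465 and 57841860 unique molecular identifiers (UMIs, each 1 captured RNA molecule). Of these, 4909 and 4442 cells passed the filters, at a median of 10672 and 9616 UMIs, and 7 kept barcode sequences occurred in both libraries. Cells were clustered without the interferon genes and named from marker genes. The mesangial-like class held 240 and 175 cells, the glomerular endothelial-like class 112 and 89, the arterial endothelial-like class 85 and 83, the parietal-like class 74 and 49, the podocyte-like class 3011 and 2681 and the immune class 21 and 58. A further 1251 and 1134 cells stayed without a name, among them clusters led by haemoglobin or cell-cycle genes.

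Most markers of each stromal and endothelial class were above their level in the other cells. In mesangial-like cells, Itga8, an integrin of mesangial cells, stood at 1450 and 1650 CPM, against 8.80 and 5.32 CPM in all other cells. Ehd3, a membrane-trafficking gene of glomerular capillaries, stood at 3760 and 2750 CPM in glomerular endothelial-like cells, against 51.8 and 42.9 CPM elsewhere. Of 7 glomerular endothelial markers, 6 and 5 were above the other cells, and Lpl was below them in both libraries, at 554 and 384 CPM against 1320 and 1260 CPM. In arterial endothelial-like cells the arterial factor Sox17 stood at 518 and 447 CPM against 3.98 and 3.08 CPM, while Sema3g of the arterial list was below the other cells, at 742 and 692 CPM against 1510 and 1460 CPM. Cldn5, of the shared endothelial list, was also below the other cells in both endothelial classes, for example at 181 and 210 CPM against 1090 and 1010 CPM in the glomerular class. All 9 mesangial, all 9 parietal and all 10 podocyte markers were above the other cells. The immune class was a mixture, with the T cell gene Cd3e in 38.1% and 41.4% of its cells and the myeloid gene Lyz2 in 38.1% and 39.7%, and at finer resolution it divided into 10 and 33 T or NK cells and 11 and 25 macrophage or monocyte cells. Of the macrophage or monocyte list, Cd68, Csf1r, Lyz2 and Adgre1 were above the other cells. C1qa, C1qb and C1qc of that list were at 0 CPM in the immune class of both libraries.

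Some cells carried more marker UMIs of another class than of their own, and they bear on the endothelial results. For both endothelial classes only the shared endothelial list was counted as their own. The glomerular and arterial lists were left out of this count, so it may mark cells that carry many markers of those lists. In the library labelled female, 7 of 112 glomerular endothelial-like cells were of this kind and held 49.5% of the class's UMIs over the 7 members counted below. The 2 deepest of them had 103654 and 144704 UMIs, or 13.1 and 18.2 times the class median. They held 885 and 1295 mesangial marker UMIs against 445 and 591 of the shared endothelial list. In the library labelled male only 1 of 89 was of this kind, with 0.703% of those UMIs. The share in mesangial-like cells was 9.71% (26 cells) and 3.46% (6 cells), and in arterial endothelial-like cells 15.2% (21 cells) and 17.4% (18 cells). For glomerular endothelial-like cells, responding shares, library ratios and Cxcl10 levels are given with and without them, a comparison chosen after the data had been seen. Other values are over all cells unless stated. Joint detection, the number of members detected per cell and the correlations were taken over all cells only. Doublet calling marked only 2 and 1 cells and was not relied on.

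Responding cells were common in stroma and endothelium and rare in podocytes. Each cell was reduced by random draw to 3000 UMIs, and a cell was counted as responding where at least 2 UMIs fell on Ifit1, Ifit3, Isg15, Irf7, Cxcl9, Cxcl10 or Gbp2. Ifitm3 and Irf1 were left out of that sum because many unstimulated cells carry them. Isg15 was kept and was the largest part of the sum. Before thinning it gave 1087 of 2255 and 789 of 2080 UMIs in mesangial-like cells. In glomerular endothelial-like cells it gave 501 of 1516 and 229 of 854. The share was not computed without Isg15. No cell was too shallow for the draw. In mesangial-like cells, 56.2% (interval 49.7% to 62.6%) of the library labelled female and 68.0% (60.5% to 74.8%) of the library labelled male responded. In glomerular endothelial-like cells the shares were 45.5% (36.1% to 55.2%) and 70.8% (60.2% to 79.9%), and the intervals of the libraries did not overlap. Without the cells richer in other markers the glomerular endothelial shares were 43.8% (34.1% to 53.8%) and 71.6% (61.0% to 80.7%), and the mesangial shares 59.3% and 68.6%. The share expected over all possible draws was 57.8% and 66.5% in mesangial-like cells and 52.0% and 67.5% in glomerular endothelial-like cells. The gap between libraries was thus narrower in expectation than in the single draw, and the lack of overlap is not read as a difference between them.

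Free RNA in droplets can give any cell a UMI, and podocyte-like cells served as the class to compare with. Only 0.598% (0.355% to 0.943%) and 0.709% (0.427% to 1.1%) of them responded, at a median of 11105 and 10105 UMIs, which is deeper than the 8484 and 7369 UMIs of mesangial-like and the 7932 and 6452 UMIs of glomerular endothelial-like cells. The mesangial and endothelial shares lay far above those of podocyte-like cells of the same libraries. Cells without a name responded in 3.20% and 3.09%, and the haemoglobin-rich barcodes described at the end in 18.2% and 17.9%. The part of free RNA in these shares was not tested. Before thinning, 84.2% and 84.6% of mesangial-like, 80.4% and 84.3% of glomerular endothelial-like and 3.79% and 3.66% of podocyte-like cells met the same criterion.

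The other classes lay between these. Arterial endothelial-like cells responded in 50.6% (39.5% to 61.6%) and 62.7% (51.3% to 73.0%), and these shares overlap those of the capillary endothelium in each library. Parietal-like cells, the deepest class at a median of 16004 and 14537 UMIs, responded in 33.8% (23.2% to 45.7%) and 34.7% (21.7% to 49.6%). Smooth muscle or renin-like cells, the stromal neighbours of mesangial cells along the arterioles, responded in 9.09% (2.53% to 21.7%) and 8.06% (2.67% to 17.8%), with intervals wholly below those of mesangial-like cells in both libraries. Immune cells responded in 14.3% (3.05% to 36.3%) and 34.5% (22.5% to 48.1%). No order is read between glomerular endothelial-like and mesangial-like cells. With all cells of the library labelled female, the endothelial share was lower but its summed level higher, at 1100 against 859 CPM. With the cells richer in other markers left out, that level was also lower, at 757 against 963 CPM. In the library labelled male, the endothelial share was then higher (71.6% against 68.6%) and the level lower (1240 against 1330 CPM).

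**Figure D1:**
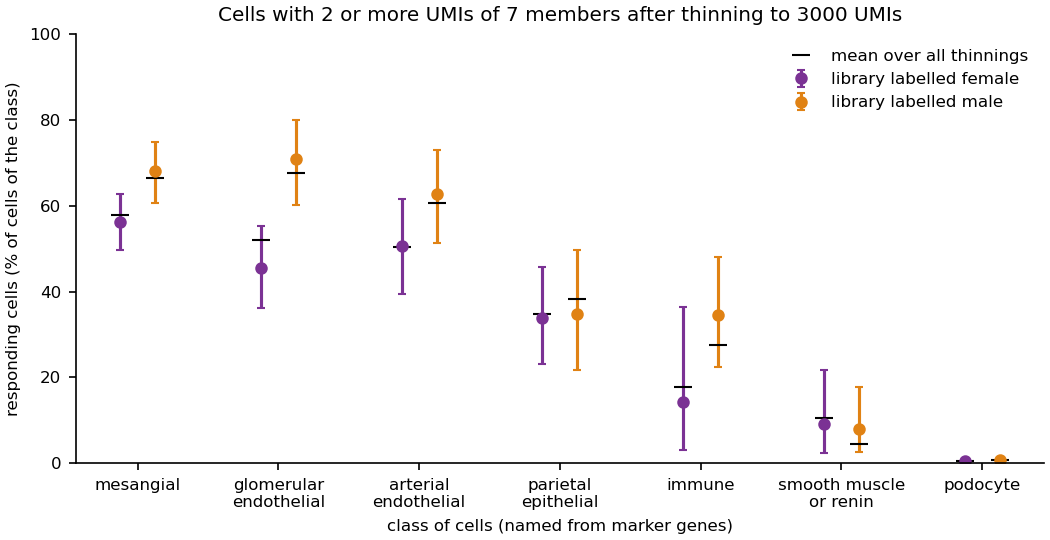
Share of responding cells (percent, at least 2 of 3000 thinned UMIs over 7 interferon-induced genes) by cell class and library, with bars of the exact 95% binomial interval and black dashes at the share expected over all draws. Mesangial-like and endothelial-like cells sit between 45.5% and 70.8%, parietal-like cells at 33.8% and 34.7%, and podocyte-like cells below 1%.

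In mesangial-like and glomerular endothelial-like cells, the thinned counts filled every number from 0 to 9 without a gap. With so few UMIs per cell, this cannot show whether a class holds 2 separate groups, which was not tested. Of mesangial-like cells, 56 of 240 and 33 of 175 had no UMI over the 7 genes after thinning, while the highest cell had 22 and 37. Of glomerular endothelial-like cells, 28 of 112 and 18 of 89 had none, and the highest had 28 and 17. After thinning, at least 4 of the 7 genes were detected together in 19 (7.92%) and 22 (12.6%) of the mesangial-like cells. Among glomerular endothelial-like cells that held for 10 (8.93%) and 20 (22.5%), and in podocyte-like cells for 0 and 0 of 3011 and 2681.

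**Figure D2:**
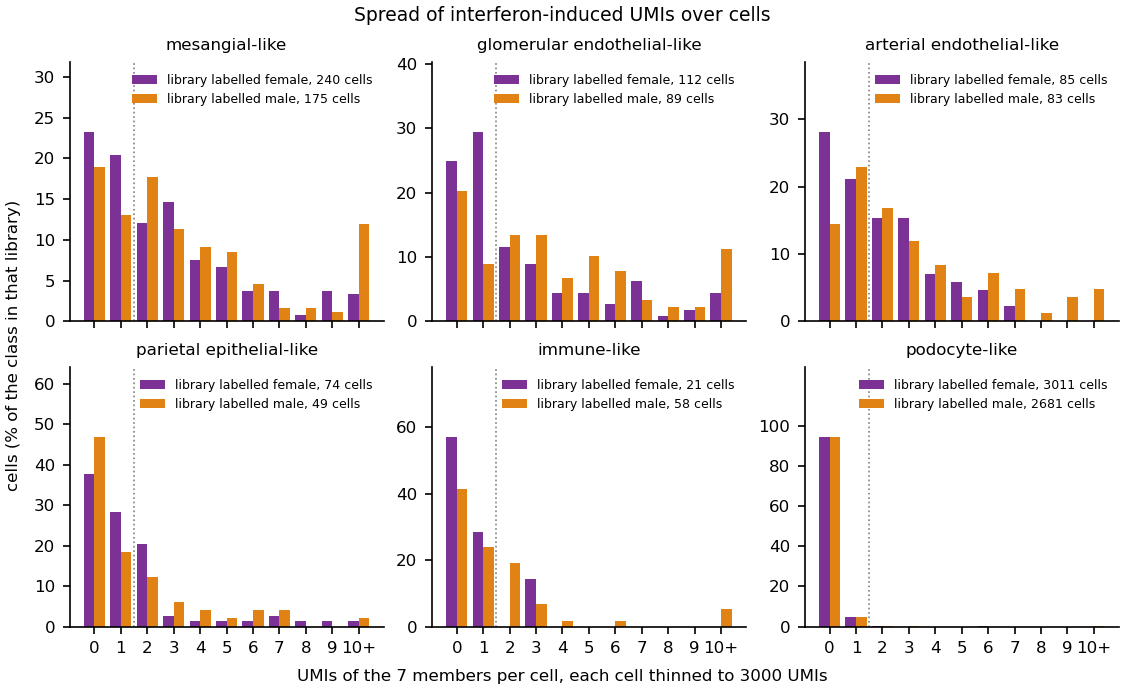
Share of cells (percent) of a class at each number of thinned UMIs over the 7 interferon-induced genes, per library, with a dotted line at the responding criterion. Most podocyte-like cells are at 0 (2844 and 2530 cells), whereas mesangial-like and glomerular endothelial-like cells spread over the whole axis without a gap.

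Depth was similar in responding and other mesangial-like cells, but not in every class. Responding parietal-like cells had a median of 21192 UMIs against 12407 in the others (labelled female), and of 14436 against 18122 (labelled male). For glomerular endothelial-like cells these medians were 7430 against 8753 and 6452 against 6434. In mesangial-like cells the median depth was 8370 UMIs in responding and 8618 in other cells in the library labelled female, and 7422 against 7326 in the library labelled male. Cells with a leukocyte marker were nearly absent, at 0 responding and 0 other mesangial-like cells in the first library and 2 and 1 in the second. Immediate early genes, which rise when tissue is taken apart, had in mesangial-like cells a median of 1360 CPM where they responded and 1200 CPM where they did not in the first library, and of 2060 and 2680 CPM in the second. Their part in the response was not tested. Ifitm3, which the criterion did not use, was higher in responding mesangial-like cells, with medians of 4310 against 3670 CPM and 4140 against 2710 CPM. In glomerular endothelial-like cells the same medians were 3590 against 2800 CPM and 3190 against 2410 CPM.

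Among the antiviral effectors, Ifit1 was carried by stroma and endothelium and close to absent from podocytes. In mesangial-like cells it stood at 147 CPM (133 to 163) and 242 CPM (218 to 267), in glomerular endothelial-like cells at 204 and 214 CPM, and in arterial endothelial-like cells at 112 and 172 CPM. Parietal-like cells held 21.8 and 55.3 CPM. Podocyte-like cells held 0.416 and 2.28 CPM, and 43 of the 69 UMIs behind the second value came from 1 cell, without which it was 0.859 CPM.

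Ifit3 followed the same classes. Its level was 199 and 364 CPM in mesangial-like, 182 and 199 CPM in glomerular endothelial-like, 105 and 142 CPM in arterial endothelial-like and 24.0 and 50.9 CPM in parietal-like cells. In podocyte-like cells it was 3.25 and 4.52 CPM. Isg15 stood at 414 CPM (390 to 440) and 485 CPM (452 to 520) in mesangial-like cells and at 364 and 322 CPM in glomerular endothelial-like cells. Without the cells richer in other markers, the glomerular endothelial levels were 284 and 335 CPM for Isg15 and 133 and 205 CPM for Ifit3. Isg15 reached 275 and 344 CPM in arterial endothelial-like and 81.5 and 125 CPM in parietal-like cells, against 3.30 and 4.65 CPM in podocyte-like cells.

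Ifitm3 differed from the other effectors in being present in nearly every stromal and endothelial cell. All 240 and 175 mesangial-like cells and all 112 and 89 glomerular endothelial-like cells held a UMI of it, at class levels of 3790 and 3660 CPM and of 3320 and 3080 CPM. Parietal-like cells stood at 326 and 348 CPM and podocyte-like cells at 3.80 and 3.30 CPM. In the immune class it was detected in 12 of 21 and 30 of 58 cells. Gbp2 had a different distribution again, at 16.8 and 20.9 CPM in mesangial-like, 29.1 and 47.9 CPM in glomerular endothelial-like and 47.4 and 48.8 CPM in parietal-like cells. Its parietal intervals (37.9 to 58.6 and 35.6 to 65.3 CPM) lay above the mesangial ones (12.2 to 22.5 and 14.5 to 29.2 CPM).

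The transcription factors separated the classes in another way. Irf7, which amplifies the type I response, was higher in endothelium than in stroma, at 148 CPM (128 to 169) and 232 CPM (198 to 271) in glomerular endothelial-like cells against 60.6 CPM (51.5 to 70.8) and 96.0 CPM (81.5 to 112) in mesangial-like cells. Arterial endothelial-like cells were at 137 and 168 CPM, parietal-like cells at 25.1 and 27.1 CPM and podocyte-like cells at 1.90 and 1.82 CPM. Irf1, a factor induced by interferon gamma and by other stimuli, was the member that podocytes also carried. Its level was 115 and 53.4 CPM in podocyte-like, 165 and 178 CPM in parietal-like, 186 and 220 CPM in glomerular endothelial-like and 61.7 and 141 CPM in mesangial-like cells.

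The podocyte Irf1 signal moved with immediate early genes. The podocyte-like cluster of 689 and 214 cells with the highest Irf1, 353 CPM (341 to 365) and 269 CPM (249 to 289), held summed early genes at 37200 and 35300 CPM. Another podocyte-like cluster, of 235 and 355 cells, held Irf1 at 10.8 and 13.3 CPM and early genes at 2560 and 2820 CPM. The 7 members of the response count stayed between 14.6 and 37.2 CPM in sum over the podocyte-like clusters. Whether tissue preparation has a part in the Irf1 level was not tested. These clusters were built from genes that include the early genes, so the values are a description.

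Cxcl10 and Cxcl9 were carried by few cells in stroma and endothelium. Cxcl10 stood at 175 and 186 CPM in glomerular endothelial-like cells, but only 17 of 112 and 20 of 89 cells held a UMI of it. Without the cells richer in other markers the levels were 51.4 and 189 CPM. Mesangial-like cells held 15.6 CPM (11.2 to 21.2) and 65.8 CPM (53.9 to 79.5), in 17 and 23 cells. Parietal-like cells had the highest level of the classes described, 343 CPM (316 to 371) and 232 CPM (202 to 265), in 35 of 74 and 27 of 49 cells. In the library labelled male that interval overlaps the glomerular endothelial one (156 to 220 CPM).

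Cxcl9 was close to absent. It had 16 and 9 UMIs in 10 and 4 mesangial-like cells, 2 and 1 UMIs in glomerular endothelial-like cells and no UMI in 3011 and 2681 podocyte-like cells, which allows a share of cells with a UMI of up to 0.0996% and 0.112%. In arterial endothelial-like cells it had 0 and 56 UMIs. All 56 came from a single cell of 7740 UMIs with 50 endothelial marker UMIs.

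Smooth muscle or renin-like cells (44 and 62), the other stromal class, held Ifitm3 and Irf1 and little of the effectors. Ifitm3 stood at 1190 and 689 CPM, Irf1 at 110 and 51.4 CPM and Isg15 at 95.7 and 53.3 CPM. Ifit1 had 5 and 0 UMIs, Ifit3 4 and 1, and Cxcl9 and Cxcl10 none, which leaves their intervals below those of mesangial-like cells for Ifit1 and Ifit3 in both libraries.

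**Figure D3:**
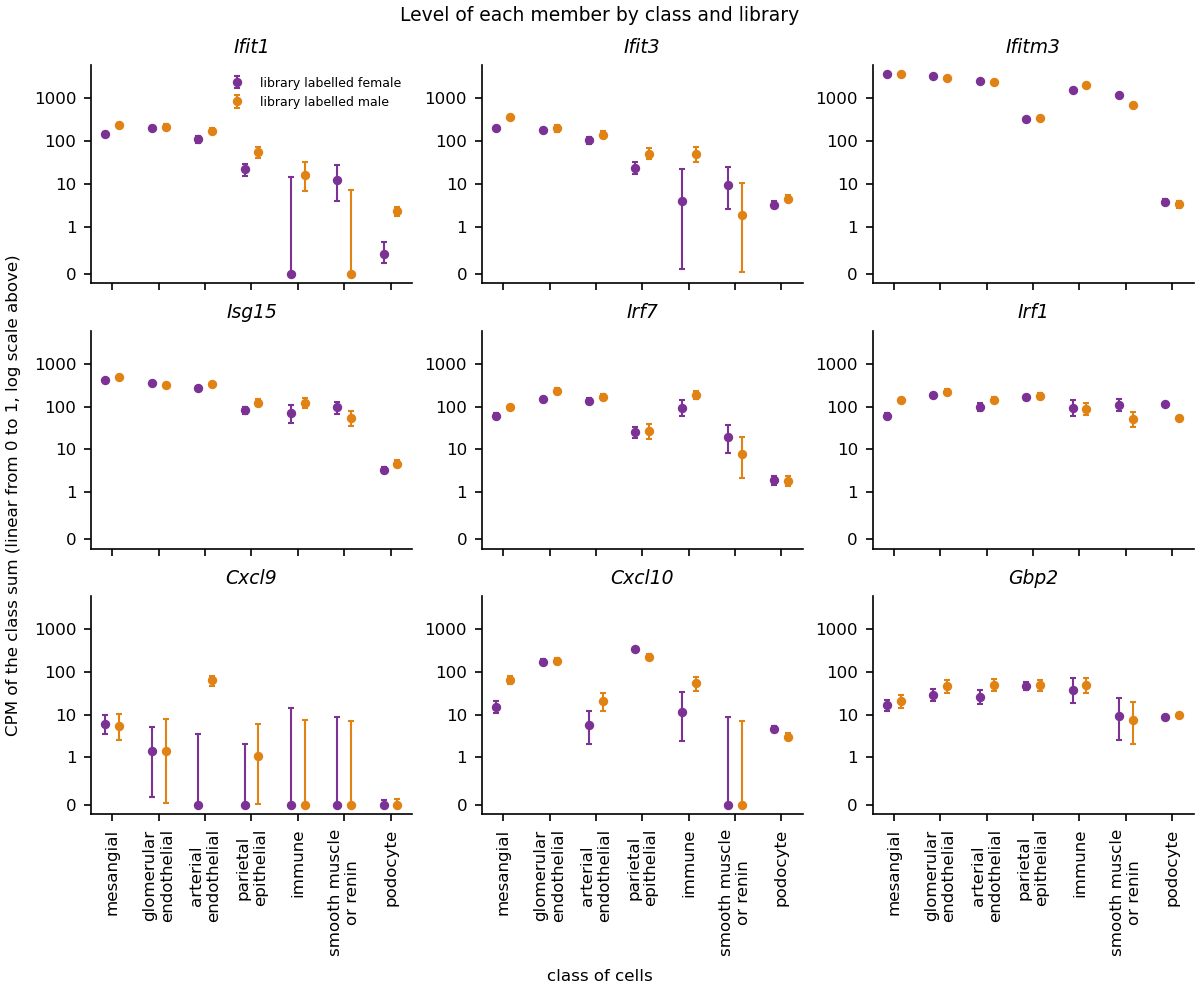
Level of each member (CPM of the summed cells, axis linear from 0 to 1 and logarithmic above) by cell class and library, with bars of the exact 95% Poisson interval. Isg15, Ifit1 and Ifit3 are high in mesangial-like and endothelial-like cells and at 0.416 to 4.65 CPM in podocyte-like cells, Cxcl10 stands at 343 and 232 CPM in parietal-like cells, and Irf1 is present in every class drawn.

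Immune cells held less of the Ifit1, Ifit3 and Isg15 transcripts than mesangial-like and endothelial-like cells. Ifit1 had 0 UMIs in 21 immune cells and 8 UMIs in 58, which leaves the first below the floor of 11.7 CPM that 3 counts would give, and Ifit3 had 1 and 25 UMIs. Isg15 stood at 70.4 CPM (41.7 to 111) and 123 CPM (93.7 to 157), below the mesangial intervals in each library. Irf7 reached 93.9 CPM (60.1 to 140) and 189 CPM (153 to 231). The finer clusters differed, as 0 of 10 and 21.2% of 33 T or NK cells responded, against 27.3% (6.02% to 61.0%) of 11 and 52.0% (31.3% to 72.2%) of 25 macrophage or monocyte cells. With so few cells, the class says little about levels below these intervals.

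Within a class the members' UMIs were gathered in fewer cells than their level alone would give. For each gene, the number of cells with a UMI was set against the number that a Poisson draw at the class level and each cell's depth would leave. Of members with at least 10 UMIs, 8 of 9 and 7 of 8 in mesangial-like cells, and 7 of 8 and 7 of 8 in glomerular endothelial-like cells, were in fewer cells than expected. So were most genes, for a reason that was not tested. In mesangial-like cells 71.3% and 71.7% of all genes with at least 10 UMIs were below their expected number. For glomerular endothelial-like cells these shares were 62.1% and 67.8%. The median ratio of observed to expected was 0.966 to 0.972 over these 4 sets of all genes. The size of the deficit, not its sign, is therefore the informative value.

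Cxcl10 showed the largest deficit of the members with at least 10 UMIs in both classes. In glomerular endothelial-like cells it was found in 17 cells where 87.2 were expected, and in 20 where 64.6 were expected, ratios of 0.195 and 0.309. Among genes with a UMI total within 2-fold of its own, 0.652% of 1840 and 0.237% of 1686 had a lower ratio. The 6 cells richest in it held 90.0% of its UMIs in the library labelled female, and the 5 richest 59.1% in the library labelled male. Without the cells richer in other markers, the ratios were 0.305 and 0.296. Mesangial-like cells gave 17 cells against 36.7 expected and 23 against 75.0, ratios of 0.463 and 0.307.

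The effectors had smaller deficits. Ifit1 was in 132 mesangial-like cells where 178 were expected and in 95 where 146 were expected, and 4.10% of 2195 and 1.44% of 1324 genes of a similar total had a lower ratio. Among glomerular endothelial-like cells Ifit1 was in 56 cells against 92.0 and 50 against 68.6. Ifit3 was in 156 mesangial-like cells against 199 and in 128 against 162. Isg15 was in 199 against 231 and in 146 against 169, with 6.72% and 5.71% of similar genes lower. Irf7 was spread more evenly, in 97 mesangial-like cells against 109 and 84 against 95.8, with 13.4% and 11.2% of similar genes lower.

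**Figure D4:**
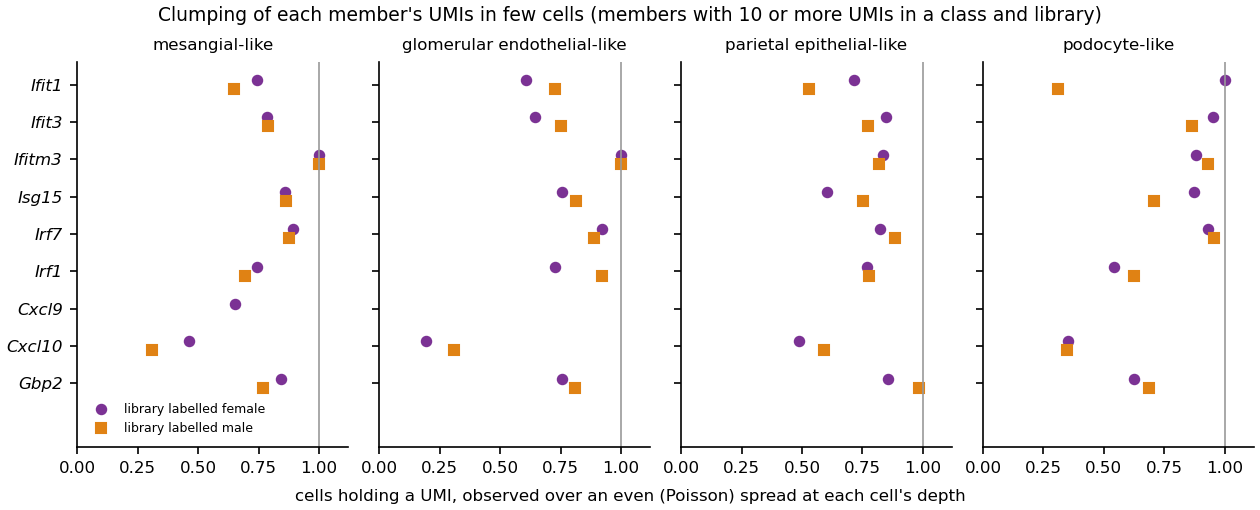
Observed over expected number of cells with a UMI (ratio, 1 for a Poisson draw at each cell's depth) for each member, by class and library. Cxcl10 lies lowest in mesangial-like (0.463 and 0.307) and glomerular endothelial-like cells (0.195 and 0.309), and Ifitm3, found in nearly all of these cells, lies at 1.

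Members tended to be detected in the same cells. After thinning to equal depth, pairs of members without Ifitm3 were compared with the product of their single shares wherever at least 2 joint cells were expected. Among mesangial-like cells, 16 of 19 pairs were together more often than the product in the first library, with a median ratio of 1.35 (range 0.696 to 1.74), and 17 of 20 in the second, with a median of 1.25 (0.655 to 2.32). For glomerular endothelial-like cells the numbers were 14 of 15 (median 1.27) and 19 of 20 (median 1.24). Pairs share genes and cells and are not independent of each other, and the same ratio was not computed for pairs of other genes. Ifit1 and Ifit3, the neighbouring effectors, met in 41 mesangial-like cells where 29.8 were expected and in 42 where 32.0 were expected.

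Parietal-like Cxcl10 was an exception to joint detection in the library labelled female only. Over the pairs of members compared in parietal-like cells, 2 of 5 were together more often than the product there, with a median ratio of 0.822. In the library labelled male 5 of 5 were, with a median of 1.72. In the library labelled female, 21 parietal-like cells with at least 10 Cxcl10 UMIs held 93.0% of the class's 614 UMIs, and 12 of the 21 had no UMI of Ifit1, Ifit3 or Isg15. The highest held 97 Cxcl10 UMIs and none of those 3 genes. Of the 21, 18 held Irf1. They were deep cells, at a median of 33778 UMIs against 16004 in the class. In the library labelled male, 7 such cells held 64.0% of 214 UMIs, and 3 of the 7 had none of the 3 effectors.

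In stroma and endothelium, the cells rich in Cxcl10 carried the effectors as well, as most cells of these classes did. All 6 and all 6 glomerular endothelial-like cells with at least 10 Cxcl10 UMIs had a UMI of Ifit1, Ifit3 or Isg15, and all had Irf1. Of the 6 in the library labelled female, 4 were cells richer in other markers, and the 2 without them held 29 of the 216 UMIs. All 4 such mesangial-like cells of the library labelled male had an effector UMI as well. Without the cells richer in other markers, Isg15 alone was in 74 of 105 and 64 of 88 glomerular endothelial-like cells. In mesangial-like cells of the library labelled male it was then in 141 of 169. Whether the contrast with parietal-like cells goes beyond their lower effector level was not tested. Isg15 and Cxcl10 were found together in 0 parietal-like cells after thinning in the first library, where 3.69 were expected, and in 7 in the second, where 4.0 were expected. These cells were chosen for their Cxcl10 counts, so the contrast is a description of few cells.

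Podocyte-like cells had rare cells with high counts. Cells with at least 10 UMIs over the 7 genes numbered 7 of 3011 (0.232%) and 7 of 2681 (0.261%), and held 20.2% and 26.6% of the class's UMIs of these genes. Cxcl10 in podocyte-like cells was in 61 cells against 173 expected and in 32 against 92.1. Gbp2 reached 72 and 43 UMIs in single podocyte-like cells, and 3 and 3 cells with at least 10 held 34.2% and 29.0% of its UMIs.

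Between the libraries, mesangial-like cells of the library labelled male held more of most members. Ratios were taken as the log2 of female over male after adding 10 CPM to each, for genes at 20 CPM or more in either library, and a gene was counted as different past 1.5-fold. Of 8 members that reached 20 CPM, 5 were lower in the library labelled female and 0 higher, where 2.39% of all 7083 genes were lower and 3.11% higher. Cxcl9 did not reach 20 CPM. The median log2 ratio of the 8 was -0.63, against 0.00 over all genes. There was no replicate, so animal, preparation and any other difference between the libraries cannot be told apart.

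The 5 lower mesangial members covered each role. By CPM without the added 10, the library labelled male exceeded the other 1.83-fold (1.62 to 2.06) for Ifit3 and 1.64-fold (1.42 to 1.90) for Ifit1. Irf7 was 1.58-fold (1.26 to 1.99) and Irf1 2.29-fold (1.87 to 2.82) higher. Cxcl10 was 4.21-fold (2.91 to 6.19) higher, from 41 and 107 UMIs. Isg15 was 1.17-fold higher (1.07 to 1.29), Gbp2 1.25-fold (0.773 to 2.0), with an interval that includes no difference, and Ifitm3 was close to equal at 3790 and 3660 CPM. Early genes stood at 4460 and 4880 CPM in these cells, and their part in the Irf1 and Cxcl10 differences was not tested. Without the cells richer in other markers, 3 of 8 were past 1.5-fold (Ifit3, Irf1 and Cxcl10), beside 2.55% of 6941 genes lower and 1.76% higher, with a median of -0.53. Ifit1 then stood just inside the limit at 1.53-fold (1.32 to 1.78) before the added 10 CPM, and Irf7 at 1.45-fold (1.15 to 1.83).

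The glomerular endothelial comparison turned on the 7 cells richer in other markers. With them, 1 of 8 members was lower in the library labelled female, Irf7, at 148 against 232 CPM or 1.57-fold (1.27 to 1.94), and 0 were higher, beside 3.85% of 7083 genes lower and 6.52% higher. The median over the 8 was -0.10, against 0.02 over all genes. Without such cells in either library, 6 of 8 were lower and 0 higher, beside 5.27% of 6962 genes lower and 4.54% higher, and the median was -0.64, against 0.03. Ifit1 was then at 116 and 223 CPM, 1.92-fold higher in the library labelled male (1.5 to 2.47), and Cxcl10 at 51.4 and 189 CPM, 3.67-fold higher (2.64 to 5.17). The others were Irf7 (1.59-fold), Irf1 (1.6-fold), Gbp2 (2.22-fold) and Ifit3 (1.55-fold).

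Arterial endothelial-like cells had 3 of 9 members lower in the library labelled female and 0 higher, beside 3.88% of 7114 genes lower and 2.97% higher. They were Gbp2, at 26.8 and 50.3 CPM, Cxcl10, at 6 and 18 UMIs, and Cxcl9, whose 56 UMIs were those of the single cell above. When the cells richer in other markers were left out, 4 of 9 were lower (Irf1, at 105 and 184 CPM, with those 3) and 0 higher, beside 7.31% of 6856 genes lower and 5.43% higher. Parietal-like cells had 2 of 8 lower, Ifit1 and Ifit3, and 0 higher, beside 2.28% of 7370 genes lower and 3.54% higher. Here the library labelled male exceeded the other 2.54-fold (1.64 to 3.96) for Ifit1 and 2.12-fold (1.37 to 3.29) for Ifit3, whereas Cxcl10 was 1.48-fold (1.26 to 1.73) higher in the library labelled female. In podocyte-like cells Irf1 alone reached 20 CPM, and it was 2.15-fold (2.03 to 2.27) higher in the library labelled female, beside 0.957% of 6168 genes higher and 0.259% lower. The share of the high-Irf1 cluster also differed there, at 689 of 3011 against 214 of 2681 cells, and its part in the ratio was not tested. Within the 6 podocyte-like clusters, Irf1 was lower in the library labelled female in 4, for example at 35.7 against 42.7 CPM, and higher in 2, at 353 against 269 and 81.8 against 66.7 CPM.

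In smooth muscle or renin-like cells 3 members reached 20 CPM. These, Ifitm3, Isg15 and Irf1, were all higher in the library labelled female at the values given above, beside 10.6% of 7003 genes higher and 8.77% lower. In the immune class 4 of 7 members (Ifit3, Isg15, Irf7 and Cxcl10) were lower and 0 higher, beside 15.7% of 6947 genes lower and 19.9% higher. That class rests on 21 and 58 cells, of which 10 and 33 were T or NK and 11 and 25 macrophage or monocyte cells, and the part of this mixture in the ratios was not tested.

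**Figure D5:**
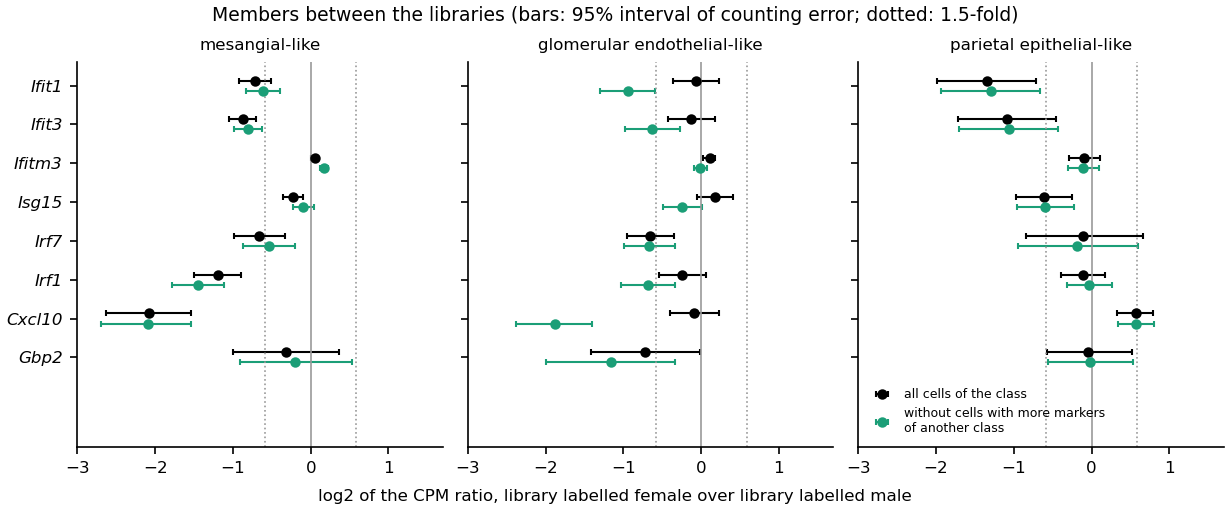
Log2 of the CPM ratio of each member, labelled female over labelled male with nothing added, in 3 classes, with 95% counting intervals and dotted lines at 1.5-fold, for all cells (black) and without cells richer in markers of another class (green). In glomerular endothelial-like cells Cxcl10 lies near 0 with all cells (175 and 186 CPM) and below the lower line without those cells (51.4 and 189 CPM), whereas in mesangial-like cells both settings lie close together.

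Other genes of the pathway were read from a list of 105, and the ligands among them were almost undetected. No UMI of Ifnb1, Ifnl2, Ifnl3, Ifnk, Ifne, Ifna1, Ifna2, Ifna4 or Ifna5 was found in 4909 and 4442 cells, which allows a share of cells with a UMI of up to 0.0611% and 0.0675%. Ifng had 17 UMIs in 5 cells, all immune, in the library labelled female. It had 31 UMIs in 12 cells, 11 of them immune, in the library labelled male.

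In mesangial-like cells, 58 of the 105 genes reached 20 CPM, and 19 were lower in the library labelled female and 0 higher, with a median log2 ratio of -0.43, where 2.39% of all genes were lower and 3.11% higher. Of 39 other induced genes 13 were lower, of 7 kinases and factors 2, of 3 sensors 2, of 4 inhibitors 2 and of 5 receptors 0. The lowest ratios were those of Socs3, which damps cytokine receptors (130 and 243 CPM), Ifih1, a sensor of double-stranded RNA (57.2 and 105 CPM), Gbp7 (154 and 262 CPM), and the immunity-related GTPases Iigp1 (279 and 467 CPM) and Irgm1 (45.0 and 80.0 CPM). The receptors were within 1.5-fold, with Ifnar1 at 61.7 and 51.7 CPM, Ifnar2 at 87.6 and 99.6, Ifngr1 at 100 and 90.4, and Ifngr2 at 99.1 and 120 CPM. The highest ratios besides Ifnar1 and Ifngr1 were those of Ifitm2 (1090 and 958 CPM), Il10rb (59.1 and 51.7 CPM) and Ifi27l2a (134 and 121 CPM), all within 1.5-fold. Leaving out the cells richer in other markers gave 10 of 58 lower and 0 higher, with a median of -0.33, beside 2.55% of all genes lower and 1.76% higher.

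In glomerular endothelial-like cells, 69 of the list reached 20 CPM, 6 were lower in the library labelled female and 1, the kinase gene Jak2, was higher, with a median of -0.21, where 3.85% of all genes were lower and 6.52% higher. With such cells left out, 16 of 69 were lower and 0 higher, with a median of -0.32, beside 5.27% of all genes lower and 4.54% higher. Over all cells of the class, the lowest ratios among genes at 50 CPM or more were those of Ifi44 (295 and 572 CPM), Gbp3 (61.8 and 118 CPM), Irgm1 (69.8 and 123 CPM), Ifi47 (33.5 and 57.7 CPM) and Ifit2 (97.5 and 141 CPM). The highest were those of Ifnar2 (88.0 and 62.0 CPM), Lgals3bp (295 and 215 CPM), Irf8 (84.4 and 67.6 CPM), Ifi27 (142 and 117 CPM) and Irf3 (64.7 and 53.5 CPM), all within 1.5-fold. The other receptor genes stood at 52.4 and 76.0 CPM for Ifnar1, 57.5 and 67.6 CPM for Ifngr1, and 73.5 and 100 CPM for Ifngr2. Arterial endothelial-like cells had 14 of 63 lower and 0 higher, beside 3.88% and 2.97% of all genes. Without such cells they had 19 of 65 lower, and 1, Ifi27l2a, at 376 and 202 CPM, higher, beside 7.31% and 5.43%. Parietal-like cells had 6 of 45 lower and 0 higher, beside 2.28% and 3.54%, and podocyte-like cells 0 of 20 in either direction, beside 0.259% and 0.957%. Smooth muscle or renin-like cells had 8 of 36 higher and 4 lower, with a median of 0.20, beside 10.6% and 8.77%. Immune cells had 23 of 70 lower and 3 higher, with a median of -0.36, beside 15.7% and 19.9%.

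The genes whose levels followed the members from cell to cell were mostly other genes of the pathway list. Across the 240 and 175 mesangial-like cells, the mean Pearson correlation over both libraries with the summed 7 members, on log values scaled to each cell's depth, was highest for Iigp1 (0.59), Parp14 (0.54), Ifi203 (0.48), Mndal (0.45) and Ifit3b (0.45), against a median of 0.00 over 9399 genes. Xaf1 (0.41), Rnf213 (0.41), Usp18 (0.40) and Ifih1 (0.40) were also among the 10 highest, of which 8 stood in the pathway list. That list holds 105 genes, beside the 9399 ranked, and was chosen with earlier results of these data known. How many of the 105 were among the ranked genes was not counted. Ifitm3, outside the sum, had 0.48 and Irf1 0.19, the latter from 0.04 and 0.35 in the separate libraries. Ifit3b shares sequence with the member Ifit3, and Ifi203 and Mndal are similar genes of the same family, so their values are uncertain.

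Across all 197 and 172 endothelial-like cells the 10 highest of 9539 genes were Ifi203 (0.46), Iigp1 (0.44), Usp18 (0.43), Rsad2 (0.43), Oasl2 (0.42), Ifi44 (0.42), Bst2 (0.41), Ifit2 (0.39), Slfn2 (0.38) and Parp14 (0.37). All 10 stood in the list of 105 genes. Ifitm3 had 0.45 and Irf1 0.24. Of the genes named for both classes, Iigp1, Parp14, Ifi203 and Usp18 were shared. These correlations describe cells that share a library, and depth and detection enter each of them.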

How the data were processed

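The deposited matrices hold raw UMI counts per gene and barcode. The authors made them with Cell Ranger 6.1.2 and STAR 2.7.5a on mm10, per the submitters' processing notes. Annotation, strand setting and barcode filter were not given in the sources used here. Each library's 1 matrix was used whole, with 0 per-sample columns left unused. The names of the deposited files give the opposite sex to the titles, and groups follow the titles.

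Barcodes with over 20% mitochondrial UMIs (283 and 504) or under 500 genes (112 and 145) were left out, and a barcode can fail both filters. Both libraries were clustered together (scanpy 1.11.5, leidenalg 0.10.2, 2000 variable genes, 30 components, 20 neighbours, resolution 1.0) without the members or the pathway list, and clusters were named from marker genes. Scrublet scores were computed, but its calls (2 and 1 cells) were too few to use. Shares were taken after thinning each cell to 3000 UMIs, with exact Clopper-Pearson intervals. Levels are summed counts as CPM with exact Poisson intervals, and ratios carry exact conditional binomial intervals (scipy 1.17.1). A share or level of 0 is given the limit that 3 counts allow. UMIs remove PCR copies, but intervals cover counting error only. The members, the marker lists and the pathway list were chosen with earlier results of these data known. Besides the 9 members, the text names the 5 highest and 5 lowest pathway genes by ratio at 50 CPM or more in mesangial-like and glomerular endothelial-like cells, 4 receptor genes, and the 10 genes most correlated with the members among those in at least 5% of cells. A gene that this rule also names is not reported here, and Jak2, arterial Ifi27l2a, markers, single cells and early genes were named after their values were seen. The steps were tested on simulated data. Alternatives changed the cell filters, resolution, thinning depth, response criterion, added CPM and scaling, and left out doubtful cells.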

Additional observations from a re-analysis of the deposited data

How the results depend on the processing

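The responding share depended on depth and on the criterion. In mesangial-like cells, 56.2% and 68.0% (labelled female and labelled male) became 45.4% and 54.3% at 2000 UMIs, 73.3% and 77.8% at 5000, and 84.2% and 84.6% without thinning. With at least 1 UMI they were 76.7% and 81.1%, with at least 3 they were 44.2% and 50.3%, and with 2 different members 49.6% and 60.0%. For glomerular endothelial-like cells, the first library's 45.5% became 67.0% at 5000 UMIs, 80.4% without thinning, 75.0% with at least 1 UMI and 33.9% with at least 3. The other library's 70.8% became 49.4% at 2000 UMIs, 84.3% without thinning and 57.3% with at least 3. Of 64 such alternatives for these 4 shares, 45 stayed within the counting interval. The log2 ratio of the 7 summed members in mesangial-like cells, -0.57, was -0.46 at resolution 2.0, -0.45 with the top 5% of doublet scores left out and -0.46 without cells richer in other markers. In glomerular endothelial-like cells, -0.12 was -0.51 with those scores left out, -0.41 without cells over 5 times the median depth, -0.71 without cells richer in other markers and -0.41 as a mean over cells. The other 21 of 28 ratio alternatives stayed within the interval. So did all 40 for the observed over expected number of cells of the 7 summed members, at least 1 of which most cells held. For single members it moved, as for Cxcl10 in glomerular endothelial-like cells of the first library, from 0.195 to 0.305 without cells richer in other markers. No called ratio changed direction under the alternatives run. The settings without deep cells or cells richer in other markers, and naming by score alone, were added after the data had been seen. Scaling by the median ratio of all genes moved totals by factors of 0.989 to 1.01. No paired analysis was possible because each group has 1 library. Depth limits the least abundant members, such as Cxcl9 and Gbp2, and the 21 immune cells of the library labelled female, where a count of 0 allows up to 14.3% of cells with a UMI.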

Other observations

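Barcodes with over 50% haemoglobin UMIs, taken from all deposited barcodes before the filters and outside every named class, held Isg15 and Irf7 with next to none of the other members of the response count. In 44 and 28 such barcodes of the libraries labelled female and male, Isg15 stood at 124 and 281 CPM and Irf7 at 37.4 and 33.9 CPM. The same barcodes had 1 and 0 UMIs of Ifit1 and none of Ifit3, Cxcl9, Cxcl10 or Gbp2. By the criterion used above, 18.2% (8.19% to 32.7%) and 17.9% (6.06% to 36.9%) of them would count as responding.

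Thick ascending limb-like cells, tubule cells that came along with the glomeruli, responded in 1.64% of 61 and 4.49% of 89 cells. A single cell of that class in the library labelled male held 38 UMIs of Ifit1 and 29 of Ifit3, together with 300 podocyte marker UMIs.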
